A study of Mus musculus with 2 samples.

Results

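The Cd274 Hcar2 Gadd45b neutrophils are a set of 1151 cells taken from mouse kidney tumours, 729 from a library labelled SMYD3 knockdown and 422 from a library labelled WT. They were chosen by counts of unique molecules (UMIs) per cell from 2389 neutrophils, which were themselves 1544 and 845 of the 9507 and 8682 barcodes that passed filters (SMYD3 knockdown and WT). A barcode counted as a gate neutrophil when the transcripts S100a8, S100a9, G0s2, Retnlg, Cxcr2 and Csf3r together made up at least 1% of its UMIs, Csf1r was at 0 and the complement genes C1qa, C1qb and C1qc summed to at most 5 UMIs. A gate neutrophil was a member when it had at most 2 Retnlg UMIs and at least 2 UMIs of Cd274, Hcar2 and Gadd45b together. The remaining 1238 gate neutrophils (815 and 423) are called the other gate neutrophils here.

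The tumours were grown from RENCA, a mouse kidney carcinoma line, placed in the kidney of BALB/c mice. The study asked what SMYD3, a lysine methyltransferase, does to the immune cells of these tumours. One set of tumours carried a SMYD3 knockdown in the grafted cells and the other was labelled WT, so the neutrophils of both groups came from the host and were not themselves knocked down. The design text speaks of leukocytes sorted on CD45, whereas each sample's record gives the cell type as epithelial and mentions no sorting. Each group had 1 library, the number and age of the mice behind it are not stated, and no difference between the libraries could be tested. Intervals are at 95% and reflect counting error, with no measure of how mice or libraries vary. Those on summed UMIs also leave out how cells vary.

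Neutrophils are short-lived granulocytes that leave the bone marrow with stored granule proteins and transcripts, among them Retnlg, Mmp8 and the calprotectin subunits S100a8 and S100a9. In tumours they take on other programmes, including expression of Cd274, which encodes PD-L1, the ligand that restrains T cells through PD-1. Hcar2 encodes the receptor for the ketone body beta-hydroxybutyrate and for niacin, Gadd45b a stress-inducible regulator of growth arrest, Ciart a repressor of the circadian clock also called CHRONO, and Mafk a small Maf protein that pairs with NRF2 and BACH1 on DNA.

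Members were shallow cells in both libraries, with a median of 1306 UMIs per cell in the SMYD3 knockdown library and 1261 in the WT library, against 1487 and 1373 in the other gate neutrophils. All barcodes passing filters had medians of 9177 and 9816.5 UMIs. Summed over cells, members gave 988956 UMIs in the SMYD3 knockdown library and 551520 in the WT library. Of all barcodes, 22 sequences occurred in both libraries, of which members held 1 in the SMYD3 knockdown library and 0 in the WT library. Smyd3 itself had 5 UMIs in SMYD3 knockdown members and 1 in WT members, too few to compare, and Srebf1, another gene of the study's title, had 5 and 2. The libraries are therefore called by their labels, which these host cells do not check.

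The promoter windows of Ciart, Gadd45b, Mafk and Cd274 are printed because 3 of them share one short sequence, CACGTG, the E-box bound by clock and other basic helix-loop-helix factors, which the text returns to below; the Hcar2 promoter was not analysed here. Each window is RefSeq sequence of build GRCm38.p6, from 250 bases before to 50 bases after the annotated start, read 5′ to 3′ on the gene's strand. Capitals mark CACGTG or, in the Cd274 window, its ACGTG core read on the opposite strand. Ciart lies at chr3:95882179-95882478 on the minus strand, Gadd45b at chr10:80929841-80930140 on the plus strand, Mafk at chr5:139791286-139791585 on the plus strand and Cd274 at chr19:29367188-29367487 on the plus strand.
Ciart: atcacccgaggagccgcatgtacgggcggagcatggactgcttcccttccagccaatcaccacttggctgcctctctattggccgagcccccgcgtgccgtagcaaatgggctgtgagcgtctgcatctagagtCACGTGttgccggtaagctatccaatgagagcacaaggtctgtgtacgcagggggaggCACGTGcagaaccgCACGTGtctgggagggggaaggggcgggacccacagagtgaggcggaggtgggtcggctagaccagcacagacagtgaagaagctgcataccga
Gadd45b: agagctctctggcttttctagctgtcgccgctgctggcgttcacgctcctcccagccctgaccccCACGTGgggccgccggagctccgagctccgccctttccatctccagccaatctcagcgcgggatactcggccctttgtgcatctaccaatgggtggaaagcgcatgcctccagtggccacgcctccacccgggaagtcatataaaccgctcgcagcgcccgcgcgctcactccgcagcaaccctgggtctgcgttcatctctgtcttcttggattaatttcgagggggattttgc
Mafk: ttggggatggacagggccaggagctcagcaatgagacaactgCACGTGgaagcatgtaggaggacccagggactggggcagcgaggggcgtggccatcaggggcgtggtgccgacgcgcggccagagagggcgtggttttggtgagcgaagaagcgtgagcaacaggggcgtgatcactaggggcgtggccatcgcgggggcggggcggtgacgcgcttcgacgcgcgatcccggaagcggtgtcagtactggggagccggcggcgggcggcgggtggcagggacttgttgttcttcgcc
Cd274: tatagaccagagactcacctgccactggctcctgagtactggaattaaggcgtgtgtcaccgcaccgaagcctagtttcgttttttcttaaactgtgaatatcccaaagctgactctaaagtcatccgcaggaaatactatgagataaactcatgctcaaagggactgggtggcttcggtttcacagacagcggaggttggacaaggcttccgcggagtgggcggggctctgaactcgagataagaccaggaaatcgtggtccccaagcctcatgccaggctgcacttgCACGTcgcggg
Ciart carried the motif 3 times, starting 116, 58 and 44 bases before the start, Gadd45b once at 185 bases and Mafk once at 208 bases. Cd274 had no CACGTG and a single ACGTG, 39 bases after the start.

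The members carried the label's genes, as the choice of cells requires, and 2 further marker genes that it did not use. Cd274 stood at 430 CPM (UMIs summed over cells and scaled to a common library size) in members and 138 CPM in other gate neutrophils of the SMYD3 knockdown library, and at 453 CPM in members and 118 CPM in other gate neutrophils of the WT library. Hcar2 stood at 3096 CPM in members against 1350 CPM in other gate neutrophils of the SMYD3 knockdown library, and at 2765 CPM against 948 CPM in those of the WT library. Gadd45b stood at 2516 CPM in members against 939 CPM in other gate neutrophils of the SMYD3 knockdown library, and at 1688 CPM against 409 CPM in those of the WT library. These 3 genes set the membership, so their higher level in members is a description.

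Ciart, outside the choice, was 3.55-fold higher in members than in other gate neutrophils of the SMYD3 knockdown library (254 against 71.5 CPM, ratio interval 2.79 to 4.56) and 4.67-fold higher in the WT library (248 against 53.1 CPM, 3.18 to 7.06). Mafk was 2.09-fold higher in the SMYD3 knockdown library (292 in members against 140 CPM in the others, 1.73 to 2.53) and 1.90-fold higher in the WT library (236 against 124 CPM, 1.42 to 2.55). Both genes were higher in members of both libraries. The members and gene lists were chosen with earlier results of these data known, so these levels too are a description.

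**Figure D1:**
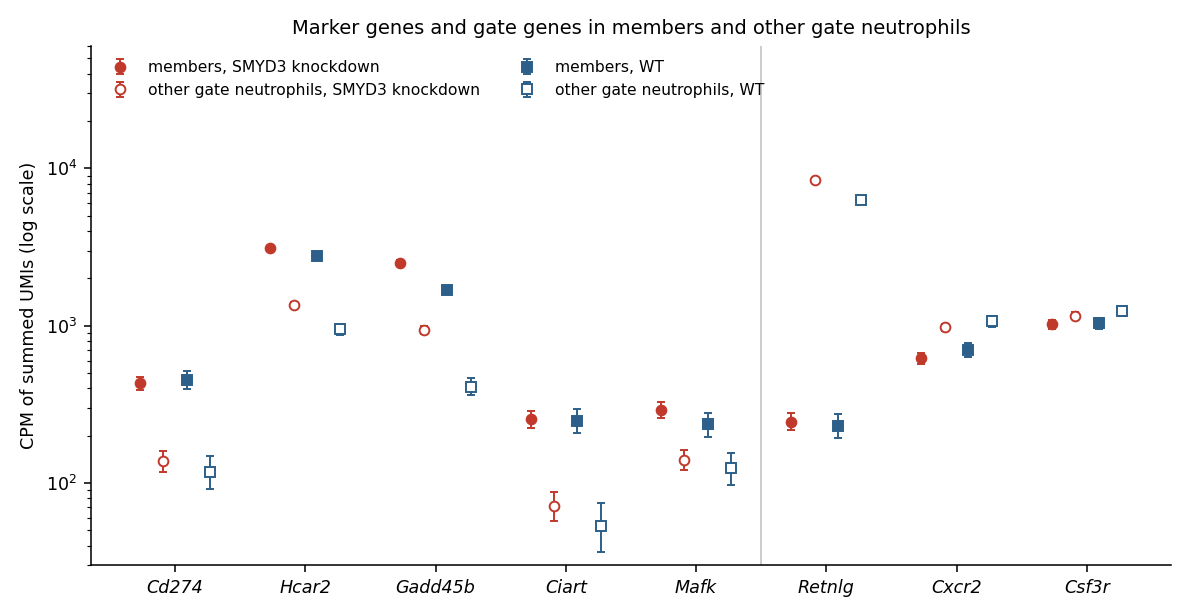
Level of the marker genes and of 3 gate genes, in CPM of summed UMIs on a log axis, in members (filled) and other gate neutrophils (open) of the SMYD3 knockdown library (circles) and the WT library (squares), with 95% Poisson intervals. Cd274, Hcar2 and Gadd45b are higher and Retnlg lower in members by the choice of cells; Ciart and Mafk are higher in members of both libraries.

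The gate required its own genes, so their level in members and their near absence from T cells are descriptions. S100a9 had at least 1 UMI in 98.2% of SMYD3 knockdown members and 96.9% of WT members, against 12.6% and 6.85% of T cells, which were picked outside the gate by at least 3 UMIs of Cd3d, Cd3e, Cd3g and Trac (103 and 146 cells) and had deeper libraries (median 3161 and 3079.5 UMIs). Its level was 24216 CPM in members and 44035 CPM in other gate neutrophils of the SMYD3 knockdown library, and 22057 CPM in members and 36623 CPM in other gate neutrophils of the WT library. The chemokine receptor Cxcr2 stood at 621 CPM in members against 976 CPM in the others of the SMYD3 knockdown library and at 704 CPM against 1068 CPM in the WT library. Csf3r, the receptor for granulocyte colony-stimulating factor, stood at 1020 against 1154 CPM and at 1037 against 1246 CPM. Neutrophil markers that the gate did not use (11 genes) summed to 26005 CPM in members and 22320 CPM in other gate neutrophils of the SMYD3 knockdown library, and to 26904 CPM in members and 22732 CPM in other gate neutrophils of the WT library. Most of that sum was the chemokine Cxcl2, and the other 10 genes summed to 5273 CPM in members and 6656 CPM in the others of the SMYD3 knockdown library, and to 6272 CPM in members and 7061 CPM in the others of the WT library. Among them the C-type lectin Clec4d stood at 1347 CPM in members and 1436 CPM in the others of the SMYD3 knockdown library, and at 1287 CPM in members and 1272 CPM in the others of the WT library. Ly6g, the surface antigen most often used to mark mouse neutrophils, had 5 UMIs in SMYD3 knockdown members and 0 in WT members, against 80 and 19 in the other gate neutrophils.

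Several lists of other cell types had few or no UMIs in members, and the macrophage, monocyte and pancreatic acinar lists did not. The T cell genes Cd3e, Trac and Cd8a, the B cell genes Cd79a, Cd79b and Ms4a1, the eosinophil genes Epx and Prg2, the NK cell genes Ncr1, Klrb1c and Eomes and all 3 fibroblast genes had no UMI in members of either library. Other T cell genes gave 20 UMIs in SMYD3 knockdown members and 4 in WT members, nearly all of Cd3d. Other eosinophil genes gave 17 UMIs in SMYD3 knockdown members and 8 in WT members (17.2 and 14.5 CPM). In the other gate neutrophils they stood at 6.99 CPM in the SMYD3 knockdown library and 9.66 CPM in the WT library. All 4 tumour cell genes had UMIs, with 39 in SMYD3 knockdown members and 13 in WT members (39.4 and 23.6 CPM). They stood at 35.7 and 35.4 CPM in the other gate neutrophils. With Csf1r at 0 by the gate, 11 of the 12 listed macrophage genes had UMIs, and the list summed to 3620 CPM in SMYD3 knockdown members and 5198 CPM in WT members, against 3190 and 4686 CPM in the other gate neutrophils. The 5 monocyte genes all had UMIs and summed to 374 CPM in SMYD3 knockdown members and 279 CPM in WT members, against 405 and 506 CPM in the other gate neutrophils. At least 1 C1q UMI was found in 83.1% of SMYD3 knockdown members and 87.4% of WT members, and in 81.8% and 87.9% of the other gate neutrophils. The part of macrophage and monocyte RNA in the results below was not tested beyond repeating them in cells with no C1q UMI.

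Hcar2 did most of the selecting. It had at least 1 UMI in 93.0% of SMYD3 knockdown members and 92.2% of WT members, Gadd45b in 64.1% and 59.5%, and Cd274 in 29.1% and 27.5%. Hcar2 also had UMIs in 54.6% and 48.7% of other gate neutrophils and in 6.80% and 5.48% of T cells. With each cell thinned to 500 UMIs, which left out no cell, the shares with Cd274 were 15.4% in SMYD3 knockdown members and 16.4% in WT members, against 5.15% and 3.31% of other gate neutrophils and 0% and 1.37% of T cells. Thinned shares with Gadd45b were 45.8% and 42.4% in members, 20.9% and 12.5% in other gate neutrophils and 8.74% and 8.90% in T cells. All 3 genes were seen together in 20.6% of SMYD3 knockdown members (95% interval 17.7 to 23.7) and 16.4% of WT members (12.95 to 20.2), whereas 29.9% and 31.8% were members on Hcar2 alone. Cd274 without either of the others accounted for 3 SMYD3 knockdown members and 1 WT member. Most members as sequenced thus had no Cd274 UMI, and the gene's level describes the sum over the group.

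Each of the 3 genes was highest in cells with at least 2 UMIs of the other two, among gate neutrophils with at most 2 Retnlg UMIs. The members were defined by these 3 genes with earlier results of these data known, so this order is a description. Cd274 stood at 85.5, 81.8 and 410 CPM in SMYD3 knockdown cells with 0, 1 and at least 2 UMIs of Hcar2 and Gadd45b, and at 23.9, 207 and 417 CPM in WT cells. Gadd45b stood at 527, 1488 and 2409 CPM in SMYD3 knockdown cells by the sum of Cd274 and Hcar2, and at 405, 966 and 1569 CPM in WT cells. Hcar2 stood at 1742, 2238 and 2929 CPM by the sum of Cd274 and Gadd45b in SMYD3 knockdown cells, and at 1447, 2281 and 2516 CPM in WT cells. Median depth in the Cd274 series was 1204, 1175 and 1307 UMIs per cell in the SMYD3 knockdown library and 1234, 1216 and 1261.5 in the WT library, and its part in the order was not tested.

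Many cells lay near the limits. Members with exactly 2 marker UMIs, just inside, numbered 100 in the SMYD3 knockdown library and 84 in the WT library, and cells with 1 such UMI and at most 2 Retnlg UMIs, just outside, numbered 127 and 86. On the other limit, 60 and 34 members had 2 Retnlg UMIs, and 40 and 24 cells with at least 2 marker UMIs were left out with 3. The group is a range of a score and not a class with an edge: 65.2% of SMYD3 knockdown neutrophils with more than 2 Retnlg UMIs, and 58.6% of WT ones, also reached 2 marker UMIs.

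**Figure D2:**
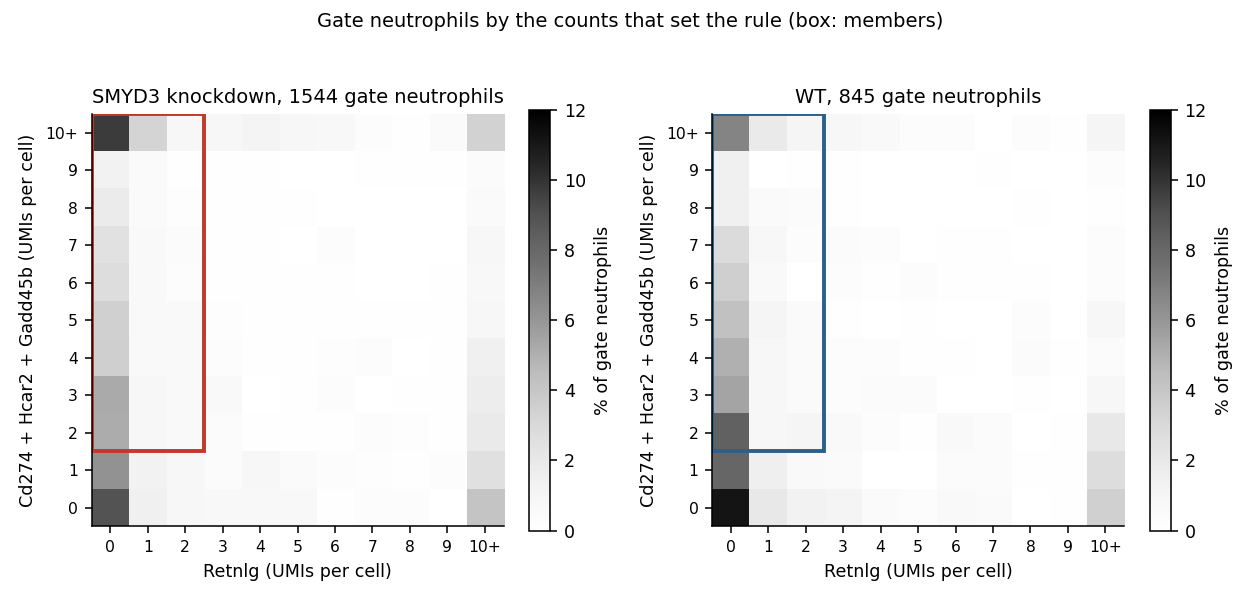
Gate neutrophils of the SMYD3 knockdown library (left) and the WT library (right) by Retnlg UMIs (x axis) and by the sum of Cd274, Hcar2 and Gadd45b UMIs (y axis), with 10 or more in the last row and column; shading gives the percentage of the library's gate neutrophils and the box encloses the members. Cells with 0 Retnlg UMIs fill the left column at every marker sum, with no gap at the lower edge of the box.

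The first comparison between the libraries is how large the group was. Members made up 47.2% of gate neutrophils in the SMYD3 knockdown library (729 of 1544, 95% interval 44.7 to 49.7) and 49.9% in the WT library (422 of 845, 46.5 to 53.4), a difference of -2.73 percentage points with an interval of -6.91 to 1.46. The interval covers the counting of cells, and with 1 library per group whether the share differs between the groups could not be tested. The order of the libraries depended on the cutoff, at 40.7% in the SMYD3 knockdown library and 40.0% in the WT library with at least 3 marker UMIs. Among cells with at most 2 Retnlg UMIs, members were 70.8% in the SMYD3 knockdown library and 67.0% in the WT library, a difference of 3.79 points (-0.77 to 8.42).

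Shares around the members are given in the same way, as values of these 2 libraries with counting intervals. Gate neutrophils were 16.2% of SMYD3 knockdown barcodes passing filters and 9.73% of WT ones, and members were 7.67% and 4.86%, a difference of 2.81 points (2.11 to 3.51). Neutrophils with more than 2 Retnlg UMIs were 33.3% of the SMYD3 knockdown gate and 25.4% of the WT gate (difference 7.85 points, 4.03 to 11.5), and neutrophils low in both Retnlg and the 3 markers were 19.5% and 24.6% (-5.12 points, -8.68 to -1.66). Cells with more than 2 Retnlg UMIs were also the deepest, with a median of 1696.5 UMIs in the SMYD3 knockdown library and 1537 in the WT library, and the part of depth in their share was not tested.

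The second comparison set the members against the other gate neutrophils of the same library. Of the measured genes on each list, 15 of 29 hypoxia and glycolysis genes and 5 of 16 cytokine and chemokine genes were higher in members of both libraries, as was the clock gene Ciart, while 9 of 20 granule and maturation genes and 8 of 22 adhesion genes were lower. Of 2333 genes measured in both libraries (with a minimum of 50 CPM and 30 UMIs in whichever group was higher, in each library), 193 (8.27%) were at least 1.5-fold higher in members in both and 142 (6.09%) at least 1.5-fold lower, on the scale of log2 (CPM + 5). The members were chosen on these counts, so nothing is read from these numbers, and the values that follow describe the cells. In the 123 SMYD3 knockdown and 53 WT members with no C1q UMI, set against the other gate neutrophils with none, the counts were 45 and 38. Fewer genes can reach 30 UMIs in so few cells. The number that did is not given here, so these counts cannot be compared with 193 and 142 as shares. The median gene differed by 0.05 in the SMYD3 knockdown library and -0.02 in the WT library (log2, members minus others).

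The other gate neutrophils were a mixture of Retnlg-high and Retnlg-low cells. The 193 and 142 genes were picked against this mixture, so their counts against each kind are partly fixed in advance and are a description. Against other neutrophils with at most 2 Retnlg UMIs, 155 of the 193 stayed past 1.5-fold in the SMYD3 knockdown library and 149 in the WT library. Against those with more than 2 Retnlg UMIs, 176 and 183 did. Of the 142 lower genes, 126 in the SMYD3 knockdown library and 133 in the WT library were past 1.5-fold against the Retnlg-high cells. Against the Retnlg-low cells, 85 and 82 were.

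Hilpda, which encodes a lipid droplet protein that restrains the lipase ATGL and is induced under low oxygen, was among the genes furthest apart. It stood at 1447 CPM in members and 425 CPM in other gate neutrophils of the SMYD3 knockdown library, and at 1191 CPM in members and 269 CPM in other gate neutrophils of the WT library. Among those others, the Retnlg-low cells had 222 CPM in the SMYD3 knockdown library and 130.5 CPM in the WT library, and the Retnlg-high cells 510 and 374 CPM. Members were thus above both kinds of neutrophil, each summed as a whole. The Retnlg-high others include cells with at least 2 marker UMIs. In such SMYD3 knockdown cells with 3, 4 to 9 and at least 10 Retnlg UMIs, Hilpda stood at 932, 1255 and 396 CPM. In such WT cells it stood at 1025, 719 and 249 CPM. Whether the higher level is particular to members was not tested. Hilpda had at least 1 UMI in 31.1% of SMYD3 knockdown members and 31.5% of WT members, against 14.2% and 14.4% of other gate neutrophils and 22.3% and 21.2% of the deeper T cells. After thinning to 500 UMIs the shares were 24.3% and 23.5% in members, 8.71% and 8.51% in the others and 4.85% and 7.53% in T cells.

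**Figure D3:**
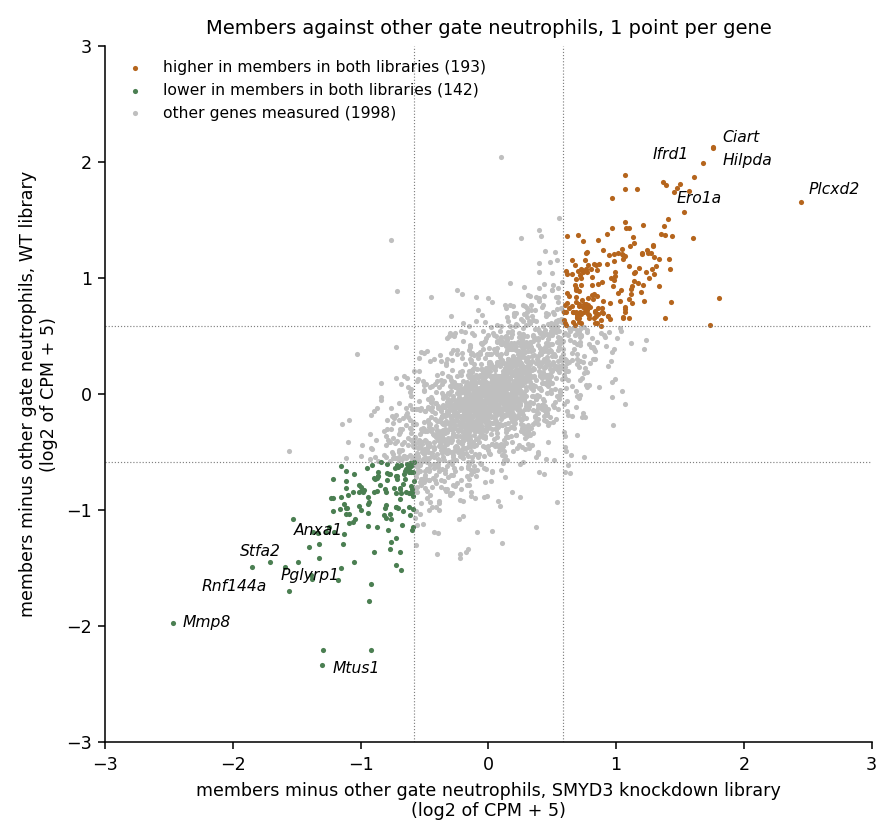
Difference of log2 (CPM + 5) between members and other gate neutrophils for each of the genes measured in both libraries, in the SMYD3 knockdown library (x axis) and the WT library (y axis); dotted lines mark 1.5-fold, and coloured points are past it in both libraries. Ciart, Hilpda, Ifrd1 and Plcxd2 lie at the upper right and Mmp8, Rnf144a and Mtus1 at the lower left.

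Hypoxia and glycolysis genes made the broadest group. Of 29 measured genes on a list of 31, 15 were higher in members in both libraries and 1 was lower, with a median difference of 0.70 in the SMYD3 knockdown library and 0.67 in the WT library on the log2 scale, beside 0.05 and -0.02 for all genes. Over all measured genes the shares were 8.27% higher and 6.09% lower. Glycolytic enzymes were among the higher genes of the list. Hexokinase Hk2 stood at 261 CPM in members and 97.9 CPM in other gate neutrophils of the SMYD3 knockdown library, and at 299 CPM in members and 80.5 CPM in the others of the WT library. Lactate dehydrogenase Ldha stood at 1130 CPM in members and 458 CPM in the others of the SMYD3 knockdown library, and at 965 CPM in members and 469 CPM in the others of the WT library. Pfkl, Pgam1, Tpi1, Aldoa, Pgk1 and the regulator Pfkfb3 were between 1.60-fold and 2.56-fold higher across both libraries, while Gapdh (ratios 1.21 and 1.41) and Pkm (1.05 and 1.27) did not pass 1.5-fold.

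Beyond glycolysis, the oxygen-responsive genes P4ha1, which encodes a collagen prolyl hydroxylase subunit, Ero1a, the oxidase that forms disulfides in the endoplasmic reticulum, and Bnip3, a mitophagy receptor, were higher in members. Ero1a stood at 731 CPM in members and 275 CPM in other gate neutrophils of the SMYD3 knockdown library, and at 763 CPM in members and 216 CPM in the others of the WT library. The angiogenic factor Vegfa stood at 109 CPM in members against 52.8 CPM in the others of the SMYD3 knockdown library, and at 90.7 against 43.5 CPM in the WT library. Hif1a, which encodes the oxygen-regulated transcription factor itself, had ratios of 1.03 and 1.07. The glucose transporter Slc2a3 was the gene that was lower in members, at 92.0 against 190 CPM in the SMYD3 knockdown library and 72.5 against 147 CPM in the WT library, while Slc2a1 had ratios of 1.60 and 1.37 and passed in the SMYD3 knockdown library alone.

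These genes also differed by the marker sum within the members, which the choice of cells partly fixes. In SMYD3 knockdown neutrophils with at most 2 Retnlg UMIs and 0, 1, 2, 3, 4 to 5 and at least 6 marker UMIs, Hilpda stood at 215, 232, 205, 632, 1049 and 2067 CPM. In WT neutrophils the series was 136, 122, 422, 837, 814 and 1819 CPM. Ero1a gave 164, 188, 410, 338, 622 and 938 CPM in the SMYD3 knockdown library and 167, 234, 263, 521, 687 and 1090 CPM in the WT library. The last bin was the highest in both libraries for both genes, and the step between 1 and 2 marker UMIs differed between libraries, with Hilpda lower after it in the SMYD3 knockdown library and higher in the WT library. Median depth was between 1196.5 and 1258 UMIs in the first 5 bins of both libraries and 1378.5 and 1325 UMIs in the last, and its part was not tested.

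**Figure D4:**
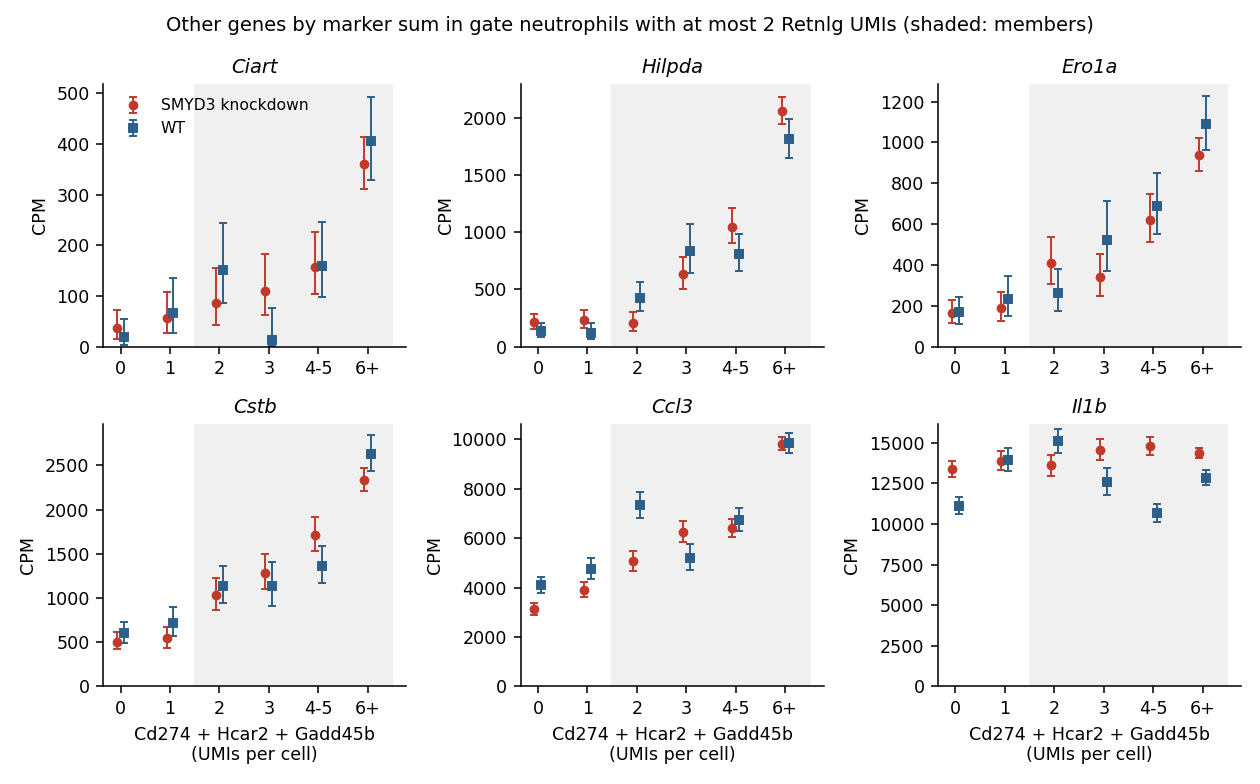
Level of 6 genes outside the choice of cells, in CPM with 95% Poisson intervals, in gate neutrophils with at most 2 Retnlg UMIs by their sum of Cd274, Hcar2 and Gadd45b UMIs, in the SMYD3 knockdown library (circles, left of each pair) and the WT library (squares); members are shaded. Ciart, Hilpda, Ero1a, Cstb and Ccl3 are highest in the last bin of both libraries, and Il1b is not.

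Among clock genes, Ciart was accompanied by Bhlhe40. Of 7 measured genes on a list of 21, these 2 were higher in members in both libraries and 0 were lower. Over all measured genes 8.27% were higher and 6.09% lower. The list's median was 0.33 in the SMYD3 knockdown library and 0.23 in the WT library. Bhlhe40, a repressor in the clock that is also induced by low oxygen and by cytokines, stood at 907 CPM in members and 486 CPM in other gate neutrophils of the SMYD3 knockdown library, and at 718 CPM in members and 366 CPM in the others of the WT library. Per1 had ratios of 1.16 and 1.53 and passed in the WT library alone, and Cry1 had ratios of 1.27 and 1.11. Ciart rested on 251 UMIs in 113 SMYD3 knockdown members and 137 UMIs in 66 WT members, and its share of cells with a UMI was 15.5% and 15.6% in members, 6.75% and 4.96% in other gate neutrophils and 0% and 4.79% in T cells. By marker sum it stood at 36.5, 56.4, 86.6, 110, 157 and 360 CPM in the SMYD3 knockdown library and at 18.6, 65.6, 150, 13.7, 160 and 405 CPM in the WT library.

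CACGTG, searched on both strands and within which ACGTG always lies, was found in 39 of the 165 promoter windows matched to genes higher in members (23.6%), in 5 of 106 matched to genes lower in members (4.72%), in 12.3% of the 1851 matched to all measured genes and in 7.24% of all 27025 windows. The shorter ACGTG, the core of the element bound by HIF proteins, was found in 46.1%, 22.6%, 30.1% and 19.7% of the same sets. TGANTCA, the AP-1 element, was found in 4.85%, 9.43%, 5.40% and 7.93%, and the NF-kappaB consensus in 9.09%, 8.49%, 6.86% and 4.35%. Of the 12 named higher genes, 11 had a window and 2 of these held CACGTG, in Ciart and Ccdc126. These are matches of letters, not sites of binding.

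Chemokine and cytokine genes were higher in part. Of 16 measured genes, 5 were higher in members in both libraries and 1 was lower, beside 8.27% and 6.09% of all measured genes. The list's median was 0.59 in the SMYD3 knockdown library and 0.47 in the WT library. Ccl3, a chemokine that draws leukocytes, stood at 8109 CPM in members and 3039 CPM in other gate neutrophils of the SMYD3 knockdown library, and at 8041 CPM in members and 3589 CPM in the others of the WT library. Ccl4, Csf1, Il1a and Tnf were the others on the higher side, and Tnf stood at 339 against 127 CPM in the SMYD3 knockdown library and 310 against 195 CPM in the WT library. Il1b did not follow, at 14369 CPM in members and 14525 CPM in the others of the SMYD3 knockdown library, and 12750 and 12546 CPM in those of the WT library. Osm, the cytokine oncostatin M, was the lower gene, at 1330 against 2614 CPM in the SMYD3 knockdown library and 1202 against 2133 CPM in the WT library.

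On the receiving side, the atypical chemerin receptor Ccrl2 stood at 3476 CPM in members and 1983 CPM in other gate neutrophils of the SMYD3 knockdown library, and at 3510 CPM in members and 1741 CPM in the others of the WT library. With the nucleotide receptor P2ry2 it was 1 of 2 higher among 9 measured chemoattractant and metabolite receptors. Tgfbr1, a receptor for TGF-beta, was the 1 higher gene among 30 cytokine and pattern receptors, at 65.7 against 28.7 CPM in the SMYD3 knockdown library and 72.5 against 29.0 CPM in the WT library. In these lists 0 genes were lower in both libraries. Over all measured genes 8.27% were higher and 6.09% lower, and the counts of these receptors are not read as a result.

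Checkpoint and suppressive genes other than Cd274 were counted in 2 short lists. Of 10 further measured genes on the checkpoint and costimulatory list, 0 were higher in members in both libraries and 1, Pirb, was lower. Of 7 suppressive mediators 0 were higher and 0 lower. Over all measured genes 8.27% were higher and 6.09% lower, so in lists this short these counts are not read as a result. Cd80 had ratios of 0.99 and 1.02, and the granulocyte arginase Arg2 stood at 946 CPM in members and 950.3 CPM in the others of the SMYD3 knockdown library, and at 952 and 950.0 CPM in those of the WT library. Cd47, the signal against phagocytosis, had ratios of 1.04 and 0.92, and its receptor Sirpa 0.83 and 0.72. Ptgs2, the prostaglandin synthase COX-2, had ratios of 1.41 and 1.49.

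A list of tumour neutrophil genes had 8 of 20 measured genes higher in both libraries and 0 lower, with a median of 0.55 in the SMYD3 knockdown library and 0.48 in the WT library. Over all measured genes the shares were 8.27% higher and 6.09% lower. Stress regulators were higher in part, and counts this small in short lists are a description. On the NF-kappaB list, 4 of 17 measured genes were higher in both libraries, namely Icam1, Tnip1, Zc3h12a and Sod2, and 0 were lower, with a median of 0.25 in the SMYD3 knockdown library and 0.41 in the WT library. Icam1, the adhesion ligand of beta2 integrins, stood at 390.3 CPM in members and 141 CPM in other gate neutrophils of the SMYD3 knockdown library, and at 484 CPM in members and 185 CPM in the others of the WT library. On the NRF2 and redox list 4 of 14 were higher, the ferritin chains Fth1 and Ftl1, which have near-identical copies, the autophagy receptor Sqstm1 and the haem oxygenase Hmox1, and Taldo1 of the pentose phosphate pathway was lower. On the list of the unfolded protein and integrated stress responses 3 of 12 were higher, Slc3a2, Dnajb9 and Ddit3. Among growth arrest genes other than Gadd45b, 3 of 13 were higher, Gadd45g, Ppp1r15a and Mdm2, and 1 was lower, while Gadd45a had ratios of 0.92 and 1.11. That list's median was -0.02 in the SMYD3 knockdown library and 0.15 in the WT library.

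Immediate early genes lay near the median of all genes. Of 23 measured genes on the AP-1 list, 2 were higher in both libraries, Maff and Mafk, a share near the 8.27% over all measured genes. On that list 0 were lower, beside 6.09% over all measured genes. The median was -0.09 in the SMYD3 knockdown library and 0.05 in the WT library. Maff stood at 375 CPM in members and 145 CPM in other gate neutrophils of the SMYD3 knockdown library, and at 379 CPM in members and 166 CPM in the others of the WT library. The third small Maf, Mafg, had ratios of 0.82 and 1.08. Fos (0.91 and 0.81) and Junb (1.099 and 1.04) lay near 1. Of 10 measured genes of heat and dissociation stress, 0 were higher in both libraries and 0 lower, which in a list this short is not read as a result.

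Granule and maturation genes lay on the other side. Of 20 measured genes on a list of 30, 0 were higher in members in both libraries and 9 were lower, beside 8.27% and 6.09% of all measured genes. The list's median was -0.73 in the SMYD3 knockdown library and -0.48 in the WT library. Mmp8, the neutrophil collagenase, stood at 152 CPM in members and 864 CPM in other gate neutrophils of the SMYD3 knockdown library, and at 207 CPM in members and 826 CPM in the others of the WT library. Its level was 304 CPM in the Retnlg-low others and 1098 CPM in the Retnlg-high others of the SMYD3 knockdown library, and 388 and 1159 CPM in those of the WT library. Pglyrp1, a peptidoglycan-binding granule protein, stood at 220.4 against 731 CPM in the SMYD3 knockdown library and 219 against 607 CPM in the WT library. Ncf1, Itgam, Cyba and Arg2 were within 1.5-fold in both libraries.

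Adhesion and movement genes were lower as well, with 8 of 22 measured genes lower in members in both libraries and 1, Icam1, higher. Over all measured genes 6.09% were lower and 8.27% higher. The list's medians were -0.51 in the SMYD3 knockdown library and -0.55 in the WT library. The integrin chains Itgal and Itga4, the adhesion glycoprotein Selplg, the small GTPase Rac2, the actin-binding Coro1a and the calcium-binding S100a6 and S100a11 were among those lower. S100a6 stood at 2577 CPM in members and 4967 CPM in other gate neutrophils of the SMYD3 knockdown library, and at 2179 CPM in members and 4025 CPM in the others of the WT library. Beta-actin, Actb, had ratios of 0.63 and 0.69 and passed in the SMYD3 knockdown library alone.

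Of the named lower genes, Stfa2 and Cstdc5 belong to the stefins, inhibitors of cathepsins with near-identical copies among which the counting could split reads. Stfa2 stood at 114 CPM in members, 100.4 CPM in Retnlg-low others and 425 CPM in Retnlg-high others of the SMYD3 knockdown library, so that against the Retnlg-low cells it was no longer lower. Anxa1, which encodes an inflammation-resolving annexin, stood at 319 CPM in members and 852 CPM in other gate neutrophils of the SMYD3 knockdown library, and at 270.2 CPM in members and 681 CPM in the others of the WT library. Sdc4, a heparan sulfate proteoglycan, the nucleoside kinase Dck, the purine oxidase Xdh, and Rnf144a, R3hdm4, Pi16 and Mtus1 completed the list, with ratios between 0.165 and 0.380 across both libraries. Against the Retnlg-low others their ratios stayed under 1, but some intervals included 1. In the SMYD3 knockdown library these were Xdh (0.784, 0.455 to 1.39) and Mtus1 (0.893, 0.503 to 1.65). In the WT library they were Sdc4 (0.632, 0.256 to 1.61) and R3hdm4 (0.649, 0.370 to 1.15). The other intervals of these genes lay below 1.

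The remaining named higher genes were Ifrd1, a transcriptional co-regulator, Plcxd2, Ccdc126, Atp6v1c1, a subunit of the vacuolar proton pump, Fnip2, a partner of folliculin, Mreg, the transferrin receptor Tfrc and the atypical kinase Mapk6. Ifrd1 stood at 991 CPM in members and 306 CPM in other gate neutrophils of the SMYD3 knockdown library, and at 869 CPM in members and 214 CPM in the others of the WT library. Plcxd2 rested on 64 and 34 UMIs in members, with 32.8% of the SMYD3 knockdown UMIs and 50% of the WT UMIs in 5 cells. Tfrc rested on 62 and 32 UMIs. In cells with no C1q UMI the Tfrc difference in the SMYD3 knockdown library was -0.020 on the log2 scale.

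The third comparison set SMYD3 knockdown members against WT members, a contrast that the choice of cells did not use. Of 2456 genes measured, 95 (3.87%) were at least 1.5-fold higher in SMYD3 knockdown members and 143 (5.82%) at least 1.5-fold lower, with a median of -0.04 on the log2 scale. Scaling by the median ratio of genes gave 121 higher and 114 lower. Thinning each cell to 1000 UMIs, which also left out shallower cells and kept 598 SMYD3 knockdown and 321 WT members, gave 145 and 95. In the other gate neutrophils the counts were 73 of 2501 (2.92%) higher and 194 (7.76%) lower. These are counts between 2 libraries and not counts of changed genes.

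Pancreatic enzyme transcripts led the higher side. The 11 listed acinar genes, among them Ctrb1, Prss2 and Pnlip, summed to 2979 CPM in SMYD3 knockdown members and to 0 UMIs in WT members, and to 2401 and 1.61 CPM in the other gate neutrophils. At least 1 of these UMIs was found in 90.0% of SMYD3 knockdown members, 90.2% of other SMYD3 knockdown gate neutrophils, 89.3% of SMYD3 knockdown T cells and 92.4% of SMYD3 knockdown barcodes outside the gate. In the WT library the share was 0 of 422 members, which allows up to 0.870%. Of the 10 named higher genes, Rnase1, Zg16, Ctrc, Cela2a, Ctrl and Cela1 are digestive or secretory products of the exocrine pancreas, and Rnase1, with 80 UMIs against 0, was at least 14.9-fold higher against a floor of 3 UMIs in WT members. Cela1 also had 22.2 CPM in WT barcodes outside the gate, against 78.2 CPM in SMYD3 knockdown ones. The level differed more than the shares did, at 735 CPM in SMYD3 knockdown T cells and 2212 CPM in SMYD3 knockdown barcodes outside the gate, and a share near its ceiling says little across cells of different depth. The part of this RNA in other results was not tested.

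The higher genes outside that group rested on few UMIs. Nt5e, which encodes CD73, the enzyme that makes adenosine, had 58 UMIs in SMYD3 knockdown members and 8 in WT members, at 58.6 and 14.5 CPM (ratio 4.04, 1.92 to 9.81). Outside the gate its ratio was 1.40 (1.33 to 1.46). Prok2, a prokineticin made by neutrophils, stood at 120.3 CPM in SMYD3 knockdown members and 45.3 CPM in WT members (2.65, 1.71 to 4.27), but 59.7% of the SMYD3 knockdown UMIs came from 5 cells. Kin (2.57, 1.40 to 5.11) had a ratio of 0.976 outside the gate, and the calcium-binding S100a4 (2.47, 1.49 to 4.297) one of 1.19.

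Cebpb, which encodes the transcription factor of emergency granulopoiesis C/EBP beta, was the furthest apart on the lower side. It stood at 1246 CPM in SMYD3 knockdown members and 4537 CPM in WT members, a ratio of 0.275 (0.256 to 0.294). The same ratio was 0.252 in the other gate neutrophils and 0.257 in barcodes outside the gate (257 against 1001 CPM). Jdp2, which represses AP-1 sites, had a ratio of 0.372 in members (30 and 45 UMIs) and 0.349 outside the gate. Both differences were therefore as large outside the gate as within it.

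Basp1, a membrane-associated signalling protein, stood at 456 CPM in SMYD3 knockdown members and 907 CPM in WT members (ratio 0.503, 0.442 to 0.573) and had ratios of 0.466 in the other gate neutrophils and 0.684 outside the gate. The remaining named lower genes had 25 to 47 UMIs in SMYD3 knockdown members and 32 to 67 in WT members, apart from Rsad2. These were Gbp2b, of a family with similar copies, Trp53inp1, Dop1b, the calcium channel subunit Orai2, Atp5k of the ATP synthase, and Dapp1. In members their ratios lay between 0.368 and 0.458. Outside the gate they were 0.712, 0.779, 0.888, 1.04, 0.689 and 0.771 in that order. In the other gate neutrophils they were 0.710, 0.657, 1.25, 0.649, 0.717 and 0.715. Gbp2b had 51.5% of its SMYD3 knockdown member UMIs and 66% of its WT member UMIs in 5 cells each. Rsad2, the antiviral protein viperin, stood at 158 CPM in SMYD3 knockdown members and 441 CPM in WT members (0.358, 0.291 to 0.440), with 36.5% and 55.6% of its UMIs in 5 cells each.

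**Figure D5:**
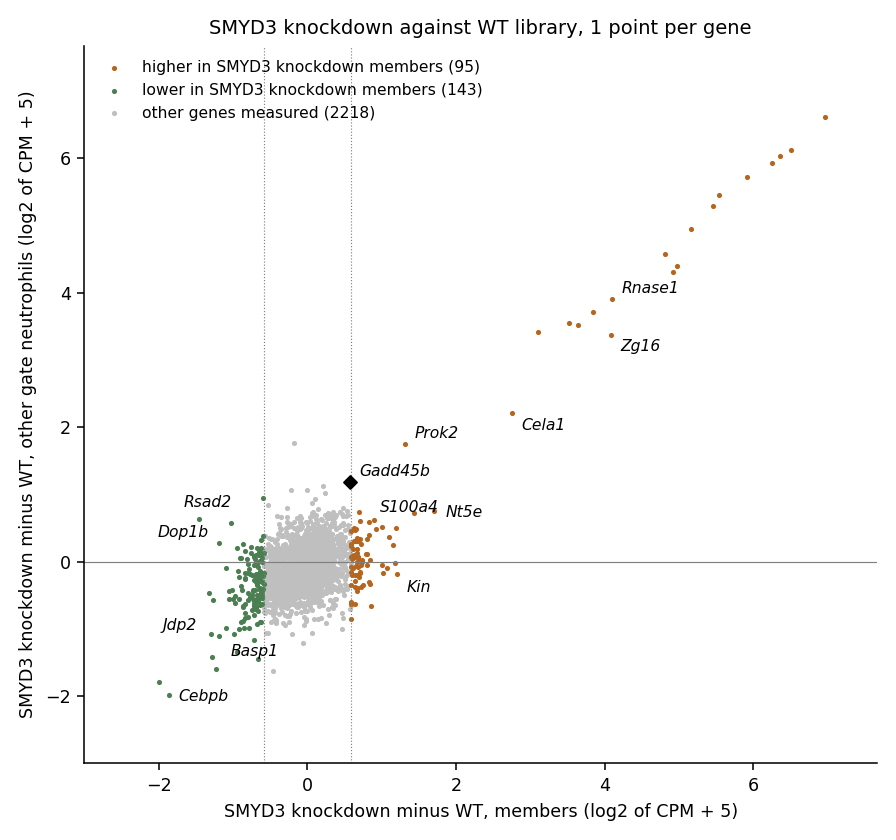
Difference of log2 (CPM + 5) between the SMYD3 knockdown and WT libraries in members (x axis) and in other gate neutrophils (y axis) for each gene measured in members; dotted lines mark 1.5-fold, and the diamond is Gadd45b, which the choice of cells used. Pancreatic enzyme genes such as Rnase1, Zg16 and Cela1 lie at the upper right, Cebpb at the lower left and Rsad2 left of 0 in members and above 0 in other gate neutrophils.

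For Cd274, Hcar2 and Gadd45b the choice of members limits how far the libraries can differ, in members and in the Retnlg-low others alike. Ratios in other gate neutrophils are given beside those in members. They also depend on how many of the others were Retnlg-high, 514 of 815 in the SMYD3 knockdown library and 215 of 423 in the WT library. In members Gadd45b stood at 2516 CPM in the SMYD3 knockdown library and 1688 CPM in the WT library, a ratio of 1.49 (1.38 to 1.61), beside 2.30 (2.00 to 2.64) in other gate neutrophils and 1.01 (0.975 to 1.04) outside the gate. Hcar2 had a ratio of 1.12 (1.05 to 1.19) in members and 1.42 (1.30 to 1.57) in other gate neutrophils, and Cd274 one of 0.948 (0.809 to 1.11) in members and 1.17 in the others. In members, Ciart had a ratio of 1.02 (0.826 to 1.27) and Mafk of 1.24 (1.00 to 1.54). In the Retnlg-high others alone, Gadd45b stood at 1290 CPM in the SMYD3 knockdown library and 669 CPM in the WT library. In the Retnlg-low others it stood at 95.1 and 67.1 CPM. The ratios of the 3 genes that set the choice are a description, and in members the intervals of Cd274 and Ciart included 1. In members Cd47 had a ratio of 0.934 (0.803 to 1.09) and Sirpa of 1.09 (0.835 to 1.43).

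Gene lists that set members apart from the others showed small differences between the libraries. Of 28 measured hypoxia and glycolysis genes, 0 were past 1.5-fold either way, with a median of 0.06 in members and 0.18 in other gate neutrophils. Over all genes measured in members 3.87% were higher and 5.82% lower, so a count of 0 says little in lists of this length. The 20 granule and maturation genes likewise had 0 past 1.5-fold and a median of -0.0063 in members. Ccl3 stood at 8109 CPM in SMYD3 knockdown members and 8041 CPM in WT members (ratio 1.01, 0.972 to 1.05), and Cxcl2 at 20732 and 20632 CPM (1.00, 0.982 to 1.03). Mitochondrially encoded transcripts were the list furthest from 0, with 4 of 7 lower, 0 higher and a median of -0.61 in members and -0.57 in other gate neutrophils. The median share of mitochondrial UMIs per member was 0.658% in the SMYD3 knockdown library and 0.903% in the WT library.

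Of 10 measured genes of heat and dissociation stress, 1, Hspa1a, was past 1.5-fold higher in SMYD3 knockdown members, beside 3.87% of all genes measured in members. The list's median was 0.39 in members and 0.04 in other gate neutrophils, a contrast that was not tested. Hspa1a, which shares sequence with Hspa1b, stood at 573 CPM in SMYD3 knockdown members and 348 CPM in WT members (ratio 1.65, 1.40 to 1.95). It had a ratio of 1.54 in the other gate neutrophils. Cxcr4, a receptor that rises on ageing neutrophils, stood at 686 CPM in SMYD3 knockdown members and 439 CPM in WT members (1.56, 1.35 to 1.82), and at 485 and 349 CPM in the other gate neutrophils. Arginase Arg1 rested on 141 and 43 UMIs (1.83, 1.29 to 2.64). NF-kappaB genes lay slightly below 0, with 3 of 17 above it, a median of -0.22 in members and -0.14 in other gate neutrophils, and 1 gene, Relb, past 1.5-fold.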

How the data were processed

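Droplet single-cell RNA-seq of cells from RENCA tumours was deposited by the authors as whole UMI counts per gene and cell, made with Cell Ranger 7.1.0 per the file headers, on build mm10 per the submitters' processing notes. A second deposited table (unit: library names) gave each barcode's library. The annotation release and any equalising of depth are not given in the sources used here, either of which could shift low counts. Barcodes were kept with at least 500 UMIs, 200 genes and at most 20% mitochondrial UMIs. UMIs were summed per library and group and divided by the total to give CPM. Calls are 1.5-fold on log2 (CPM + 5), with 50 CPM and 30 UMIs in the higher group. Shares carry Clopper-Pearson intervals, CPM exact Poisson ones, ratios those of a conditional binomial and differences of shares Newcombe's, and no test was run. A ratio against 0 UMIs used a floor of 3 counts. Genes were named by rank: 12 higher and 12 lower against other gate neutrophils, 10 and 10 between libraries, leaving out mitochondrial, ribosomal, immune receptor, unnamed and sex-linked genes, genes of the choice and markers of other cell types. The members, gene lists, naming rule and most alternatives were chosen with earlier results of these data known. Doublets were not removed, since Scrublet (scanpy 1.11.5) marked 1 and 3 cells by its own threshold; removing the highest scores was an alternative. Other alternatives were thinning to 1000 UMIs, other cutoffs, cells without C1q, equal cell weights, a 100-UMI minimum, median ratio scaling and a pseudocount of 1. Promoters came from RefSeq (GRCm38.p6). The calls and intervals were run on simulated Poisson counts, which lack the spread between cells and so cannot check the intervals for it. Python 3.11.15, numpy 2.4.6, scipy 1.17.1 and pandas 2.3.3 were used.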

Additional observations from a re-analysis of the deposited data

Results flagged for a closer look

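Rsad2, the antiviral protein viperin, lay on opposite sides in the 2 libraries. Members over other gate neutrophils gave a ratio of 0.582 in the SMYD3 knockdown library (158 against 271 CPM) and 2.56 in the WT library (441 against 172 CPM). The difference between the libraries was not tested, since each has 1 sample. In WT members 1 cell held 77 of the 243 UMIs, and 32 cells had any. In SMYD3 knockdown members the highest cell held 20 of 156 UMIs, and 52 cells had any.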

How the results depend on the processing

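No paired analysis was possible because each group has 1 library, and no replicate could be left out. The share of members in the SMYD3 knockdown and WT gates was 43.8% and 45.2% in cells thinned to 1000 UMIs, 40.7% and 40.0% with at least 3 marker UMIs, 55.4% and 60.1% with at least 1, and 35.4% and 38.9% with Retnlg at 0. The 193 genes higher in members became 45 in cells without C1q UMIs and 96 with a minimum of 100 UMIs; the 142 lower became 38, 68 and, against Retnlg-low cells only (chosen after seeing the data), 86. Between libraries, the 95 higher genes became 145 after thinning and 43 at 100 UMIs, and the 143 lower became 95 after thinning, 46 without C1q and 26 at 100 UMIs. Cells without C1q numbered 123 and 53 members, and a higher minimum tests fewer genes. The number of genes measured under each alternative is not given here, so these counts cannot be compared as shares. The other causes were not tested. Single values reversed in the SMYD3 knockdown library, Tfrc without C1q (-0.020, log2) and Stfa2 (0.18) and Cstdc5 (0.25) against Retnlg-low cells. Of 728 recomputed values of members over others 3 reversed and 144 moved beyond their counting interval, among them 28 of 56 without C1q, 34 of 56 against Retnlg-low cells and 21 of 56 after thinning. Of 220 between libraries 0 reversed and 11 moved, among them 7 of 20 without C1q. The minimum of 100 UMIs cannot alter the value of a single gene, so its 56 and 20 values were bound to stay the same. Genes under about 50 UMIs are limited by depth.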

Other observations

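A list of lysosomal genes was drawn up after the values had been seen, so its counts are a description. Of 22 measured genes of the lysosome and its regulators, 10 were at least 1.5-fold higher in both libraries and 0 lower. Over all measured genes 8.27% were higher and 6.09% lower. The list's median was 0.65 in the SMYD3 knockdown library and 0.53 in the WT library (log2, members minus others). The cathepsin inhibitor Cstb stood at 1915 CPM in members and 748 CPM in other gate neutrophils of the SMYD3 knockdown library, and at 1859 CPM in members and 710.1 CPM in the others of the WT library. Folliculin, Flcn, and its partners Fnip1 and Fnip2, which control nutrient signalling at the lysosome, were all higher, as was the nutrient-sensing GTPase Rragc. Of 15 measured subunits of the vacuolar proton pump, 2 were higher, Atp6v1a and Atp6v1c1, and 13 lay above 0 in both libraries. The count of 2 is not read as a result beside the share over all measured genes. Lamp2, Psap and Tfe3, a transcription factor of this pathway, had ratios under 1 in both libraries.

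Of 19 measured interferon genes, 0 were higher in members in both libraries and 1, Gbp7, was lower. Over all measured genes 8.27% were higher and 6.09% lower, so these counts are not read as a result. The transcript Cxcl10 was held by few cells. It had 171 UMIs in 46 SMYD3 knockdown members and 142 UMIs in 31 WT members, and 5 cells held 63.2% and 66.9% of them. Ifitm2, by contrast, had UMIs in 496 SMYD3 knockdown members and 312 WT members.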
